A study of Mus musculus with 6 samples.

Results

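Collagens are the proteins that form the fibres and sheets of the extracellular matrix. The collagen genes described here are all genes on the array whose symbol reads Col, a number, a and a number, such as Col1a1. The rule matched 85 of 46619 probes on the array, which belong to 40 of 19406 named genes. C57Bl/6 mice supplied mTECs, the epithelial cells of the thymic medulla, taken here as the fraction bearing much MHC class II, and their RNA was measured in 1 colour on Illumina bead arrays. There were 3 arrays from Aire knockout mice (replicates 1 and 3 male, replicate 2 female) and 3 from wild-type mice (replicates 1 and 3 female, replicate 2 male). Chip 1 held knockout replicate 1 with wild-type replicates 1 and 2, and chip 2 held the other arrays. Wild-type replicates 1 and 2 also share a date label that differs from that of the other 4 arrays. A fit with this label as a covariate therefore compares the knockout arrays with wild-type replicate 3 alone. The sources used here do not give the knockout allele, the age of the mice, other gates of the sort or any pooling, and p-values measure only the spread between these samples.

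A collagen molecule is a helix wound from several alpha chains, and each alpha chain is the product of its own gene. Fibrillar collagens build the ropes of skin, bone, tendon and cartilage, whereas type IV collagens form the network of basement membranes on which epithelia and vessels rest. The remaining types decorate fibrils (the FACIT collagens, with interrupted helices), cross the plasma membrane, anchor the epidermis, form short-chain networks or beaded filaments, or carry a fragment with activity on vessels (the multiplexins). mTECs display proteins of many organs to developing T cells, in part through the transcriptional regulator Aire. Some collagens can thus be seen in these cells as antigens of cartilage or skin, and some as the matrix that epithelial and other stromal cells of the thymus lay down.

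Values are the deposited log2 units, and folds are antilogs of log2 differences. On each array the background bound was the most frequent value plus 3 SD of the values below it, which was 6.85. A probe was tested when it stood above the bound on at least 3 of the 6 arrays, and each gene was represented by its brightest tested probe. Aire itself read 10.36, 10.30 and 10.01 on knockout arrays 1 to 3 and 13.55, 13.66 and 13.40 on wild-type arrays 1 to 3 (log2 change −3.31, SE 0.12, limma adjusted p = 4.07e-08). Of the mTEC markers, 6 of 6 on the array stood above background. Arrays of the same genotype correlated across tested probes with Pearson r of 0.983 to 0.994, and arrays of different genotypes with 0.906 to 0.933, where genes are not independent replicates. For several matrix genes knockout replicate 3 read closer to the wild-type arrays than to the other knockout arrays. For the collagens whose call or size rests on it, values are given with and without it. Knockout replicate 3 was singled out by these same readings, so p-values without it are not an independent test of a fall.

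Of the 40 collagen genes, 25 had a tested probe. In the knockout 15 of these fell, 1 rose and 9 did not pass the test (limma, Benjamini-Hochberg adjusted p under 0.05 over all tested probes). The same call was lower for 23.2% and higher for 18.5% of the 11539 tested named genes, and either call for 41.7%, beside a share of 60.0% lower among the tested collagens. A fall of at least 1 log2 unit was seen for 9 collagens and for 8.28% of all tested named genes. The median log2 change of the tested collagens was −0.51, against 0.02 for all tested named genes. The filter bears on these counts, because 5 of the 15 falling genes stood above background on no knockout array and 3 on only some, so that they entered the test through the wild-type arrays. Of the 15 collagen genes above background on all 6 arrays, 7 fell and 1 rose, and under the same filter 15.9% of all tested named genes fell and 18.9% rose. Without knockout replicate 3, 17 of 25 fell and 1 rose, where 23.3% of all tested named genes fell and 15.9% rose. With chip as a block 14 fell, within chip 1 10 fell (10.3% of all genes) and within chip 2 7 fell (11.5% of all genes). With the date label as a covariate 8 fell. The date label fit rests on wild-type replicate 3 alone against the knockout arrays, so it cannot separate date from genotype in the other wild-type arrays. The shares of all tested named genes lower with chip as a block and with the date label are not given here. The collagen counts under these settings thus cannot be set against a general loss of calls. In bulk RNA, fewer cells of a type and less RNA per cell cannot be told apart.

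**Figure D1:**
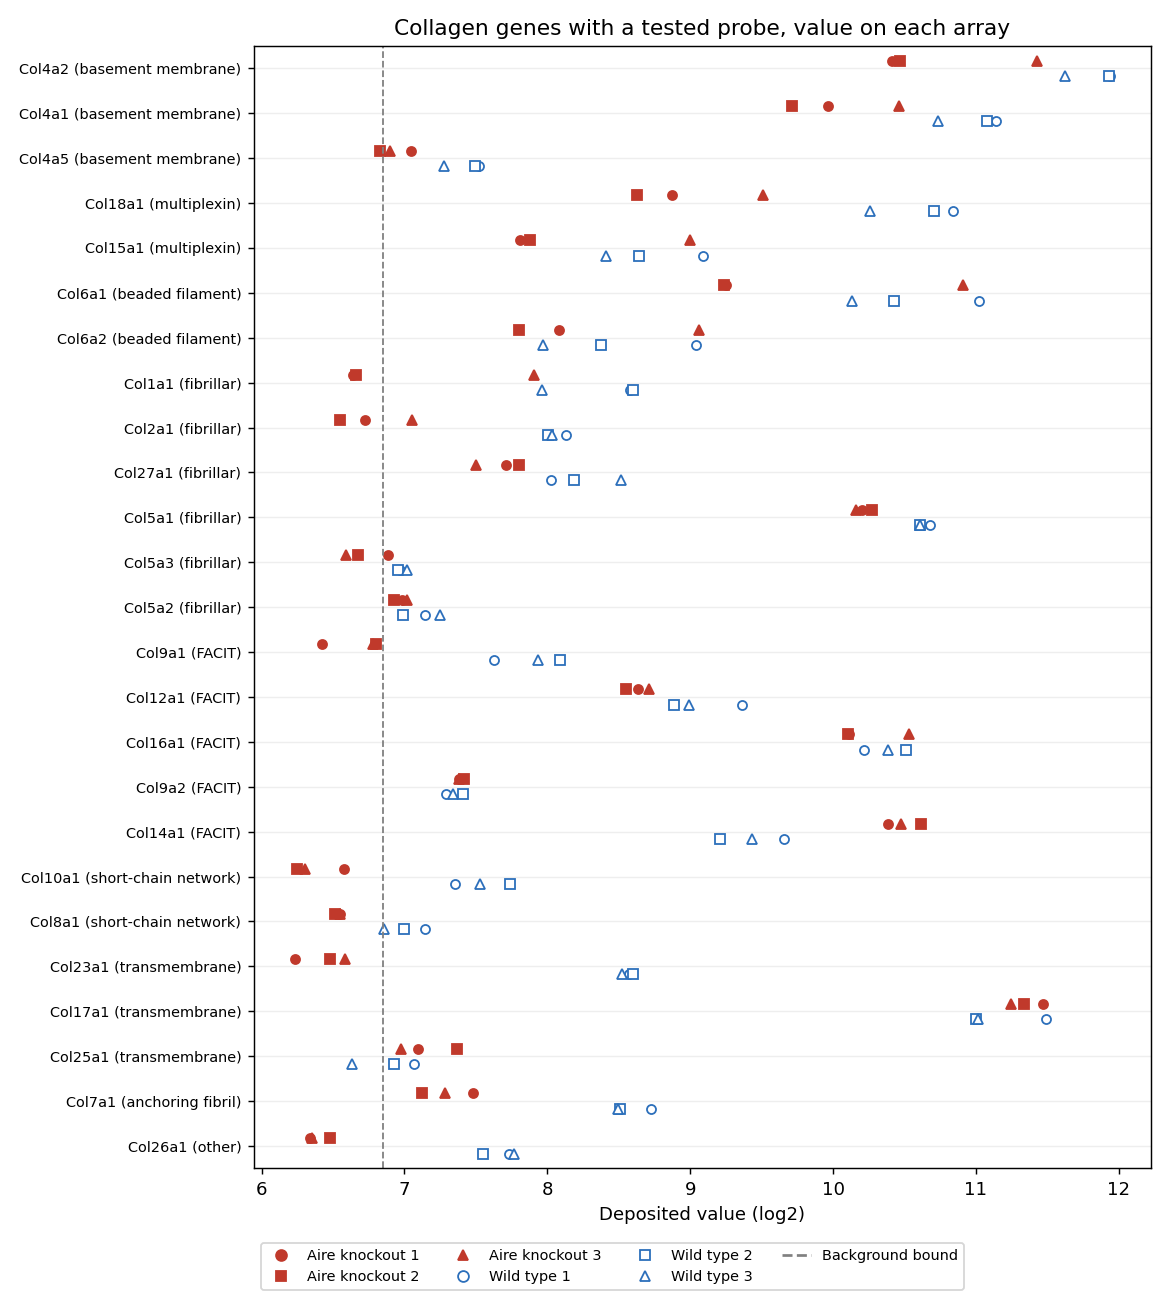
Deposited log2 value of each of the 25 collagen genes with a tested probe (horizontal axis) on each array, with Aire knockout as filled red symbols above wild type as open blue symbols, and symbol shapes for replicates 1 to 3. The dashed line is the mean background bound of 6.85. The red triangle of knockout replicate 3 lies near the wild-type symbols for Col4a2, Col1a1, Col15a1, Col6a1 and Col6a2, whereas for Col23a1, Col26a1 and Col7a1 all 3 knockout arrays lie apart from all 3 wild-type arrays.

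The promoters of 4 collagen genes are printed to set their sequence beside their values. RefSeq (GRCm38.p6) gave windows of 300 bases around the gene start for 32 of the 40 genes. Col4a1 and Col4a2 are shown because they lie head to head and their values moved together, Col23a1 because it was above background on all wild-type arrays and no knockout array, and Col10a1 because it is a cartilage collagen not above background in the knockout. Capitals mark the GC box GGGCGG, the CCAAT box CCAAT and the TATA box TATAAA on either strand, and none of these motifs overlap here.
Col4a1: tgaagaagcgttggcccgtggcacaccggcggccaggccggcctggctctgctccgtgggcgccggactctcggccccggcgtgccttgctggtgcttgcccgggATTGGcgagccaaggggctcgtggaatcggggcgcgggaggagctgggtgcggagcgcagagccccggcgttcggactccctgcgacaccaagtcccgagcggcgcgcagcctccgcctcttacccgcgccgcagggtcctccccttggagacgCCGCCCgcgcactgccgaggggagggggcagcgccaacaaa
Col4a2: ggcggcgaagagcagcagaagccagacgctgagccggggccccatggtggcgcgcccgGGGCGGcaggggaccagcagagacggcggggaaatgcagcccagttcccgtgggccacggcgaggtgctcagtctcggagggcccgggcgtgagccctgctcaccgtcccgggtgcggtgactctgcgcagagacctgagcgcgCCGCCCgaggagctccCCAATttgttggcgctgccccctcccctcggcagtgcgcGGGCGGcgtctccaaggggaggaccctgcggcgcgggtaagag
Col23a1: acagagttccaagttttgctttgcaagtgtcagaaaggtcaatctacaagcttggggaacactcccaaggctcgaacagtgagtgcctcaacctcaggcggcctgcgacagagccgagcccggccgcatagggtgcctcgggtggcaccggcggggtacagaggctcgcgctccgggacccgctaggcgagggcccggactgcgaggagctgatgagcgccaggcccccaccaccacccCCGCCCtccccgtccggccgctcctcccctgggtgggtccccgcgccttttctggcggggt
Col10a1: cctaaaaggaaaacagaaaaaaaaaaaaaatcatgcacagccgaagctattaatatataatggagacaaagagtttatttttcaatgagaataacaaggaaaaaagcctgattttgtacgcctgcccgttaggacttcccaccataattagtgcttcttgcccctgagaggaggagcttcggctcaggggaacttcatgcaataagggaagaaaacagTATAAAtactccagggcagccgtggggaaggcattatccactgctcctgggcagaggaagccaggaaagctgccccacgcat

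The Col4a1 window is chr8:11312777-11313076 on the minus strand and the Col4a2 window chr8:11312555-11312854 on the plus strand, and they share 78 bases. Both hold a CCAAT box and a GC box (1 in Col4a1 and 3 in Col4a2) and no TATA box, with 37 and 33 CpG dinucleotides. The GC box of Col4a1 lies in the shared bases and is the same site as 1 of the 3 of Col4a2, read on the other strand. The Col23a1 window, chr11:51289670-51289969 on the plus strand, holds 1 GC box and 24 CpG dinucleotides. The Col10a1 window, chr10:34389731-34390030 on the plus strand, holds 1 TATA box, no GC or CCAAT box, and 6 CpG dinucleotides, close to the median of 7 over all windows. Of 32851 windows of this length, 35.7% hold the GC box, 37.4% the CCAAT box and 13.6% the TATA box. A match describes the letters and not a site of binding.

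Basement membrane collagens fell in 3 of 3 tested genes of a class of 6, but none of the 3 passed with the date label as a covariate (adjusted p = 0.0889 for Col4a1, 0.118 for Col4a2 and 0.125 for Col4a5). Col4a1 and Col4a2, the chains found in nearly all basement membranes, were each measured by a probe above background on all arrays. Col4a1 read 9.97, 9.72 and 10.46 in knockout replicates 1 to 3, against 11.14, 11.07 and 10.74 in wild-type replicates 1 to 3. Col4a2 read 10.41, 10.47 and 11.43 in the knockout, against 11.94, 11.93 and 11.63 in wild type. The groups did not overlap, but knockout replicate 3 lay close to wild-type replicate 3 on both. The log2 change was −0.94 for Col4a1 (SE 0.19, adjusted p = 0.00311) and −1.06 for Col4a2 (SE 0.24, adjusted p = 0.00637). Without knockout replicate 3 the changes were −1.14 and −1.39. Within chip 1 they were −1.14 and −1.52, and within chip 2, where neither passed, −0.65 and −0.68.

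Col4a5, a chain of the kidney filter and of epithelial basement membranes that is altered in Alport syndrome, read 7.04, 6.83 and 6.90 in the knockout, against 7.53, 7.50 and 7.28 in wild type. Its log2 change was −0.51 (SE 0.11, adjusted p = 0.00531), and a second probe changed by −0.59 (adjusted p = 0.00279). The call of Col4a5 also ended within chip 1 (adjusted p = 0.199), within chip 2 (0.134) and with arrays scaled to 18 housekeeping genes (0.0951). Its neighbour Col4a6, the next gene on the X chromosome, stood above the bound on 2 arrays and was not tested, with 6.36, 6.27 and 6.29 in the knockout, against 6.93, 6.97 and 6.76 in wild type. With no filter on dim probes Col4a6 passed (log2 change −0.58, adjusted p = 0.00162). Col4a3 and Col4a4, which overlap each other at their starts by 114 bases in the annotation, were above background on no array.

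In the multiplexins and the beaded filament collagens knockout replicate 3 was again the highest knockout array. Of 2 tested genes in each class, 1 multiplexin fell and 0 beaded filament genes passed in limma (0 also at an unadjusted p under 0.05). Col18a1, a heparan sulphate proteoglycan of basement membranes whose end fragment is endostatin, read 8.87, 8.63 and 9.51 in the knockout, against 10.84, 10.71 and 10.26 in wild type. The groups did not overlap, and the log2 change was −1.60 (SE 0.22, adjusted p = 3.61e-04), which is 3.03-fold lower in the knockout. Without knockout replicate 3 it was −1.85, and within chip 2 −1.19 (adjusted p = 0.0933). Another Col18a1 probe was not above background on any array.

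Col15a1, the other multiplexin, read 7.81, 7.88 and 9.0 in the knockout, against 9.09, 8.64 and 8.41 in wild type. The groups overlapped through knockout replicate 3 alone, and the log2 change of −0.48 (SE 0.29, adjusted p = 0.213) did not pass. Without that array it was −0.87 (adjusted p = 0.00561), and within chip 2 it was 0.03. Col6a1, a chain of the beaded filaments that link cells to the interstitial matrix, showed the widest spread among knockout arrays of the tested collagens. It read 9.25, 9.24 and 10.91 in the knockout, against 11.02, 10.43 and 10.13 in wild type (log2 change −0.73, SE 0.40, adjusted p = 0.176). Without knockout replicate 3 its change was −1.28 (adjusted p = 0.0018), and within chip 2 −0.06. Neither Col15a1 nor Col6a1 passed when any other single array was left out. Col6a2, its partner chain and the next protein-coding gene on chromosome 10, read 8.08, 7.8 and 9.06 in the knockout, against 9.04, 8.37 and 7.97 in wild type, and did not pass with all arrays (−0.15, adjusted p = 0.739) or without knockout replicate 3 (−0.52, adjusted p = 0.147). A second Col6a2 probe changed by 0.22 and did not pass. Col6a1 and Col18a1 also lie near each other on chromosome 10, with 2 protein-coding genes between them.

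Fibrillar collagens fell in 4 of 6 tested genes of a class of 11, and none rose (median log2 change −0.49). Beside this and the other class counts, 23.2% of all tested named genes fell and 18.5% rose. Of the 4 falling genes, Col1a1 and Col2a1 stood above background on only 1 knockout array each. Col1a1, the main chain of bone and skin collagen, read 6.64, 6.66 and 7.91 in the knockout, against 8.58, 8.60 and 7.96 in wild type. Of the knockout arrays only replicate 3 stood above background, at nearly the level of wild-type replicate 3. The log2 change was −1.31 (SE 0.31, adjusted p = 0.00876). It was −1.73 without knockout replicate 3, −1.95 within chip 1 and −0.68 within chip 2 (adjusted p = 0.39), and the call also ended with the date label as a covariate (−0.89, adjusted p = 0.178). Col1a2, the partner chain in type I collagen, and Col3a1, which forms mixed fibrils with it, were above background on no array.

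Col2a1, the main collagen of cartilage, read 6.73, 6.55 and 7.05 in the knockout, against 8.13, 8.0 and 8.03 in wild type. The groups lay well apart, with 1 knockout array above background. The log2 change was −1.28 (SE 0.13, adjusted p = 4.96e-05), with −1.34 within chip 1 and −1.23 within chip 2. Another Col2a1 probe was above background on all wild-type arrays and no knockout array (−1.48, adjusted p = 5.12e-05, at least 2.13-fold lower). "At least" marks a fold against a floor: on each dim array the level is raised to the dimmest signal above background unless the probe itself read more.

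Smaller falls were seen for Col5a1 and Col27a1. Col5a1, which sets the diameter of type I fibrils, read 10.20, 10.27 and 10.16 in the knockout, against 10.68, 10.61 and 10.61 in wild type. The SD was 0.06 in the knockout and 0.04 in wild type (n = 3 each), and a log2 change of −0.42 (SE 0.09, adjusted p = 0.00615) passed. The call ended with housekeeping scaling (adjusted p = 0.187), with the date label as a covariate (0.0772), within chip 1 (0.225) and within chip 2 (0.157). The p-values with housekeeping scaling went largely with the size of the change. With that scaling Col6a1, whose knockout SD was 0.96, passed at −0.67 (adjusted p = 0.0342), whereas Col5a1 did not at −0.36. For Col5a1, Col4a5, Col8a1 and Col12a1 a call that ended there is therefore little test against the spread of the gene. Col27a1, a fibrillar collagen of developing cartilage, read 7.71, 7.8 and 7.50 in the knockout, against 8.02, 8.19 and 8.51 in wild type (−0.57, SE 0.14, adjusted p = 0.0105). Its other tested probes changed by −0.34 and −0.10 and did not pass, and its call ended within chip 1 (adjusted p = 0.282). Col5a3 read 6.89, 6.67 and 6.59 in the knockout, against 6.97, 6.96 and 7.02 in wild type. Its groups did not overlap, but the change of −0.26 did not pass (adjusted p = 0.0768). Among all tested named genes 54.5% had groups that did not overlap, and 27.3% did so with the knockout lower. Among the collagens 17 of 25 did not overlap, 16 with the knockout lower. Col5a2 changed by −0.15 (adjusted p = 0.259).

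**Figure D2:**
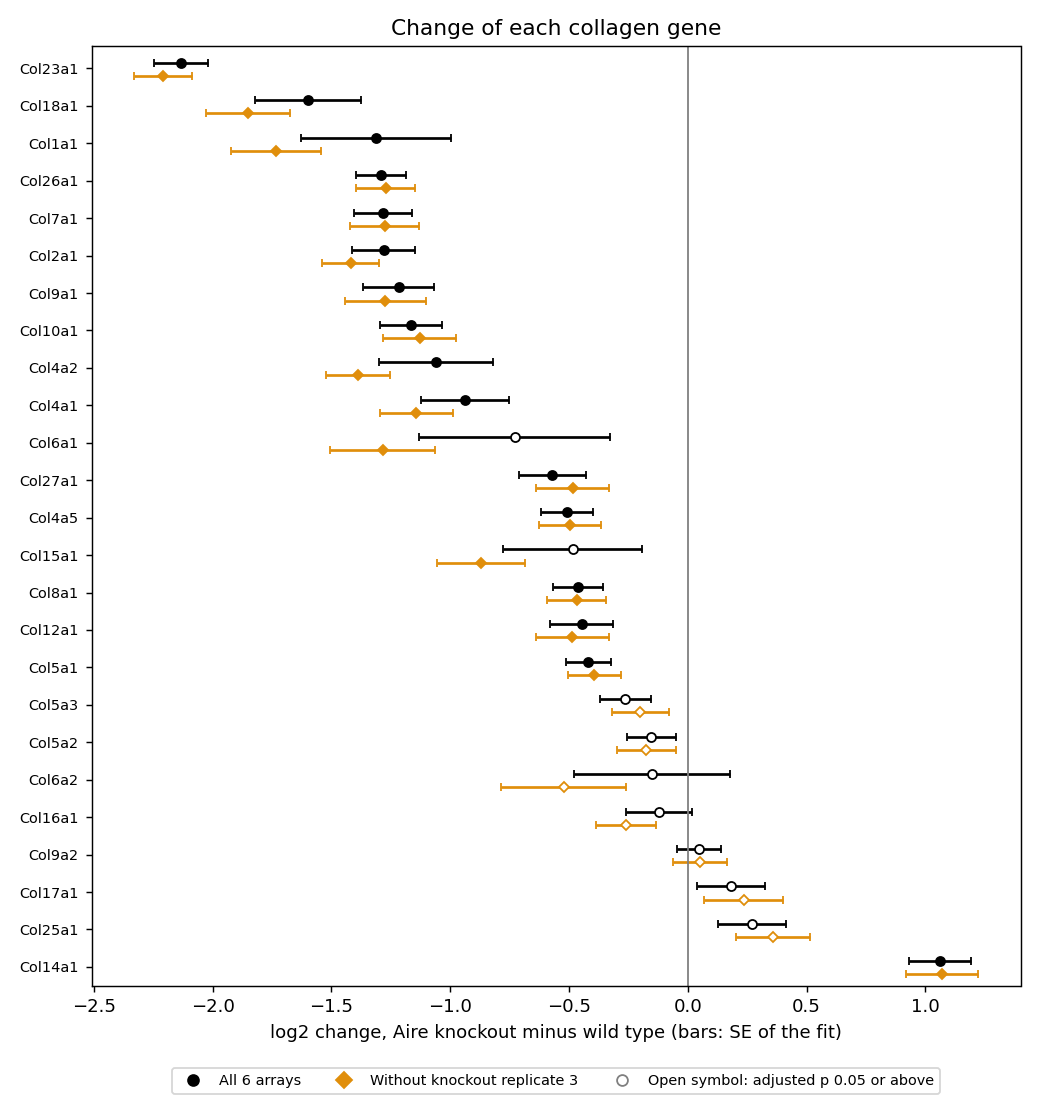
Log2 change of each tested collagen gene (Aire knockout minus wild type, horizontal axis) with the SE of the limma fit, over all 6 arrays (black circles) and without knockout replicate 3 (orange diamonds). Filled symbols had an adjusted p under 0.05. The largest shifts between the estimates are those of Col6a1, Col1a1, Col15a1, Col6a2 and Col4a2, and Col14a1 lies alone on the right among filled symbols.

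FACIT collagens sit on the surface of fibrils. Of 5 tested genes in a class of 7, 2 fell and 1 rose. Col9a1, which coats the fibrils of cartilage, read 6.43, 6.8 and 6.78 in the knockout, where no array was above background, against 7.63, 8.09 and 7.94 in wild type. It was at least 2.05-fold lower (log2 change −1.22, SE 0.15, adjusted p = 1.50e-04). Other probes of Col9a1 were above background on no array. The partner chain Col9a2 read 7.38, 7.42 and 7.38 in the knockout and 7.29, 7.41 and 7.34 in wild type, and changed by 0.05 (SE 0.09, adjusted p = 0.716). The third chain, Col9a3, was above background on no array.

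Col14a1, a FACIT collagen of skin and tendon that binds the small proteoglycan decorin, was the 1 collagen gene that rose. It read 10.39, 10.62 and 10.47 in the knockout, against 9.65, 9.21 and 9.43 in wild type. All knockout arrays, replicate 3 included, lay above all wild-type arrays, and the log2 change was 1.06 (SE 0.13, adjusted p = 1.56e-04), which is 2.09-fold higher. A second probe rose by 0.99 (SE 0.15, adjusted p = 5.73e-04). The decorin gene Dcn, measured here as a marker of mesenchymal cells, read 12.35, 12.37 and 12.36 in the knockout, against 11.41, 11.19 and 10.98 in wild type (1.17, SE 0.12, adjusted p = 4.63e-05). Dcn was the only riser among the 10 tested markers of fibroblasts and mesenchyme, of which 4 fell. Within chip 1 the change of Col14a1 was 0.95 (adjusted p = 0.0651) and within chip 2 1.11.

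Col12a1, a FACIT collagen of tendon and ligament, read 8.63, 8.55 and 8.71 in the knockout, against 9.36, 8.89 and 8.99 in wild type (−0.45, SE 0.13, adjusted p = 0.0242). The call ended in 8 of 19 alternatives: without knockout replicate 1 (adjusted p = 0.0712) or knockout replicate 2 (0.0893), with chip as a block (0.0546), with sex (0.0563) or the date label (0.228) as a covariate, with housekeeping scaling (0.165), within chip 1 (0.294) and within chip 2 (0.198). Col16a1 changed by −0.12 (SE 0.14, adjusted p = 0.509), with knockout replicate 3 at 10.53, above the other knockout arrays at 10.11 and all wild-type arrays.

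For the membrane-spanning, short-chain and other remaining collagens, knockout replicate 3 lay either below at least 1 other knockout array or above the higher of them by at most 0.10 log2 units (Col23a1). Col23a1, a membrane-spanning collagen whose outer part can be shed, read 6.23, 6.48 and 6.58 in the knockout, where no array was above background, against 8.57, 8.60 and 8.53 in wild type. It was at least 3.29-fold lower (log2 change −2.13, SE 0.11, adjusted p = 4.39e-07), with −2.35 within chip 1 and −1.99 within chip 2. Col26a1, a short collagen known from testis and ovary, read 6.34, 6.48 and 6.35 in the knockout, also below background, against 7.73, 7.55 and 7.77 in wild type. It was at least 1.78-fold lower (−1.29, SE 0.10, adjusted p = 8.37e-06). For both genes the gap between the groups was many times the spread among wild-type arrays. The knockout spread is that of probes at background, so it does not measure variation of expression. Other probes of Col23a1 and Col26a1 were above background on no array.

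Col10a1, the collagen of hypertrophic cartilage, read 6.58, 6.25 and 6.30 in the knockout, against 7.36, 7.74 and 7.53 in wild type. It was at least 1.62-fold lower (−1.16, SE 0.13, adjusted p = 9.29e-05), and no knockout array was above background. Its call ended within chip 1 (−0.97, adjusted p = 0.0532). Col8a1, a related short-chain collagen of the vessel wall and the cornea, read 6.55, 6.52 and 6.55 in the knockout, against 7.14, 7.0 and 6.86 in wild type (−0.46, SE 0.10, adjusted p = 0.0067, at least 1.11-fold lower). The call of Col8a1 ended with housekeeping scaling (adjusted p = 0.141), with the date label as a covariate (0.144), within chip 1 (0.168) and within chip 2 (0.208). Another Col8a1 probe was above background on no array. Col8a2, the partner of Col8a1, stood above background on 1 array and was not tested. With no filter it passed (−0.54, adjusted p = 0.0401).

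Col7a1, which forms the anchoring fibrils that fasten the epidermis to the dermis and is the target of antibodies in a blistering disease, read 7.48, 7.12 and 7.28 in the knockout, against 8.73, 8.51 and 8.49 in wild type. It stayed above background on all arrays, and the log2 change was −1.28 (SE 0.12, adjusted p = 2.75e-05), with −1.14 within chip 1 and −1.29 within chip 2. Another Col7a1 probe was above background on no array. Col17a1, the hemidesmosomal collagen of the same junction and also a skin autoantigen, did not fall. It read 11.47, 11.33 and 11.24 in the knockout, against 11.49, 10.998 and 11.01 in wild type (0.18, SE 0.14, adjusted p = 0.337). A dimmer Col17a1 probe rose by 0.34 (adjusted p = 0.0455), and the brighter one passed when wild-type replicate 1 was left out (0.34, adjusted p = 0.0312). Col25a1, a membrane-spanning collagen of neurons, changed by 0.27 (SE 0.14, adjusted p = 0.157).

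The 15 collagen genes without a tested probe were Col1a2, Col3a1, Col4a3, Col4a4, Col4a6, Col6a4, Col6a6, Col8a2, Col9a3, Col11a1, Col11a2, Col13a1, Col19a1, Col24a1 and Col28a1. Of these, 11 were above background on no array and 4 on 1 or 2 arrays (Col4a6, Col8a2, Col11a2 and Col13a1). A probe at background gives at most a bound on its transcript, and only if the probe works, which was not tested. In wild type a dim Col18a1 probe averaged 6.05 where the tested probe averaged 10.60. For Col6a1 a dim probe averaged 6.64 where the brightest averaged 10.53. The untested genes therefore cannot be taken as low. With no filter the count of falling collagen genes was 17 of 40 and that of rising genes 1.

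Knockout replicate 3 was the highest knockout array by at least 0.5 log2 units for 6 of the 25 tested collagens (24%): Col1a1, Col4a2, Col6a1, Col6a2, Col15a1 and Col18a1. The same held for 1.47% of the 11539 tested named genes. It was the lowest by that margin for 0 of the 25 collagens and 0.329% of all genes. Col4a1 fell just short of the margin, at 0.49 above the next knockout array. Knockout replicate 3 shared its sex with replicate 1 and its chip with replicate 2, and was the 1 male array on chip 2. Neither the sex by genotype nor the chip by genotype interaction passed in limma for any tested collagen (0 of 25 each, also 0 of 25 at an unadjusted p under 0.05, with 247 and 106 of the 11539 genes at that level and 0 adjusted), in models with few residual degrees of freedom.

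**Figure D3:**
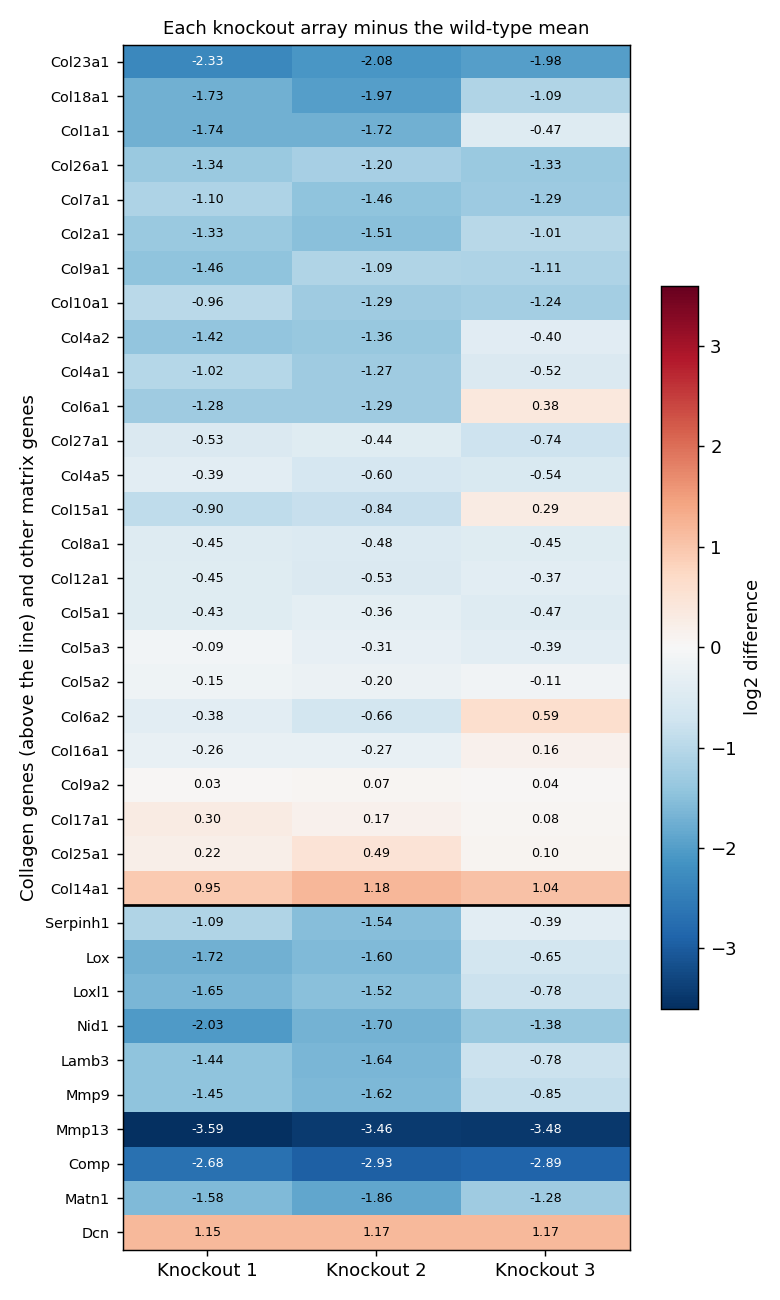
Log2 difference between each Aire knockout array (columns) and the mean of the 3 wild-type arrays, for the tested collagen genes above the line and 10 other matrix genes below it (colour scale in log2 units, blue for lower in the knockout). Col6a1 read −1.28, −1.29 and 0.38 on knockout arrays 1 to 3, whereas Mmp13, Comp and Dcn differ little between the 3 arrays.

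The enzymes that make and cross-link collagen did not share a direction. Of 31 on the array 23 were tested, of which 6 fell and 3 rose (median log2 change −0.06). Beside these counts, 23.2% of all tested named genes fell and 18.5% rose. Of the 19 enzymes above background on all 6 arrays 2 fell and 3 rose. Under that filter 15.9% of all tested named genes fell and 18.9% rose. The largest changes were falls of Lox and Loxl1, the oxidases that start the cross-links between collagen chains. Lox read 6.59, 6.71 and 7.66 in the knockout, against 8.69, 8.22 and 8.01 in wild type (−1.32, SE 0.27, adjusted p = 0.00362). Loxl1 read 6.58, 6.71 and 7.45 in the knockout, against 8.26, 8.29 and 8.13 in wild type (−1.32, SE 0.20, adjusted p = 5.99e-04). Serpinh1, the chaperone of procollagen in the endoplasmic reticulum, read 10.55, 10.09 and 11.25 in the knockout, against 11.75, 11.61 and 11.56 in wild type (−1.01, SE 0.24, adjusted p = 0.008). On all 3 genes knockout replicate 3 was the highest knockout array, and without it the changes were −1.66, −1.58 and −1.32. The genes that rose were all proline hydroxylases: P4ha1, a catalytic subunit of prolyl 4-hydroxylase, by 0.71 (SE 0.11, adjusted p = 9.16e-04), P3h1 by 0.57 and P3h2 by 0.52. The last pair were named after their values were seen.

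Genes of other basement membrane proteins fell in 9 of 18 tested cases and rose in 1 (26 on the array, median log2 change −0.34). The shares over all tested named genes were 23.2% lower and 18.5% higher. The filter bears on these counts. Of the falling genes, Papln and Lamc3 stood above background on no knockout array, and Lama2, Nid1 and Nid2 on only some. Of the 12 genes above background on all 6 arrays 4 fell, beside 15.9% of all tested named genes under that filter. Nid1, nidogen, which links laminin to type IV collagen, read 6.68, 7.01 and 7.33 in the knockout, against 8.97, 8.75 and 8.39 in wild type (−1.70, SE 0.19, adjusted p = 7.49e-05). Lamb3, a chain of the laminin of epithelial anchoring, changed by −1.29 (SE 0.24, adjusted p = 0.00223), the proteoglycan agrin (Agrn) by −0.89 (SE 0.15, adjusted p = 0.00104) and the matrix protein Smoc2 by −0.80 (SE 0.17, adjusted p = 0.00427). Without knockout replicate 3 the changes were −1.86 for Nid1, −1.54 for Lamb3, −0.85 for Agrn and −0.97 for Smoc2. The gene that rose was Frem2, a protein of the embryonic epidermal basement membrane, not above background on any wild-type array and at least 1.43-fold higher in the knockout (adjusted p = 3.49e-04, named after its value was seen).

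Collagen receptors and matrix proteases fell in 6 of 13 tested cases and rose in 1 (19 on the array, median −0.50). The shares over all tested named genes were 23.2% lower and 18.5% higher. Of the 11 genes of this list above background on all 6 arrays 4 fell and 1 rose. Under that filter 15.9% of all tested named genes fell and 18.9% rose. Mmp13, the collagenase that cleaves cartilage collagen, read 6.27, 6.40 and 6.37 in the knockout, where no array was above background, against 9.98, 9.89 and 9.71 in wild type. It was at least 8.04-fold lower (log2 change −3.51, SE 0.11, adjusted p = 1.24e-08). The gelatinase Mmp9 changed by −1.30 (SE 0.19, adjusted p = 4.65e-04), the collagen-degrading cathepsin Ctsk by −0.90 (SE 0.26, adjusted p = 0.0227) and Ddr1, a collagen receptor kinase of epithelia, by −0.72 (SE 0.17, adjusted p = 0.00695). Without knockout replicate 3 the change was −1.53 for Mmp9, −1.25 for Ctsk (adjusted p = 3.52e-04) and −0.83 for Ddr1. Mmp2, a gelatinase named after its values were seen, did not pass with all arrays (−0.56, adjusted p = 0.162) and passed without knockout replicate 3 (−0.97, adjusted p = 0.00122). It did not pass when any other single array was left out. Ctsk did not pass without knockout replicate 1 (adjusted p = 0.0741), knockout replicate 2 (0.081) or wild-type replicate 2 (0.0805). The gene that rose was Itga6 (0.48, adjusted p = 0.0128), a subunit of the epithelial laminin receptor, which did not pass without knockout replicate 2 (adjusted p = 0.0572) and was named after its value was seen.

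**Figure D4:**
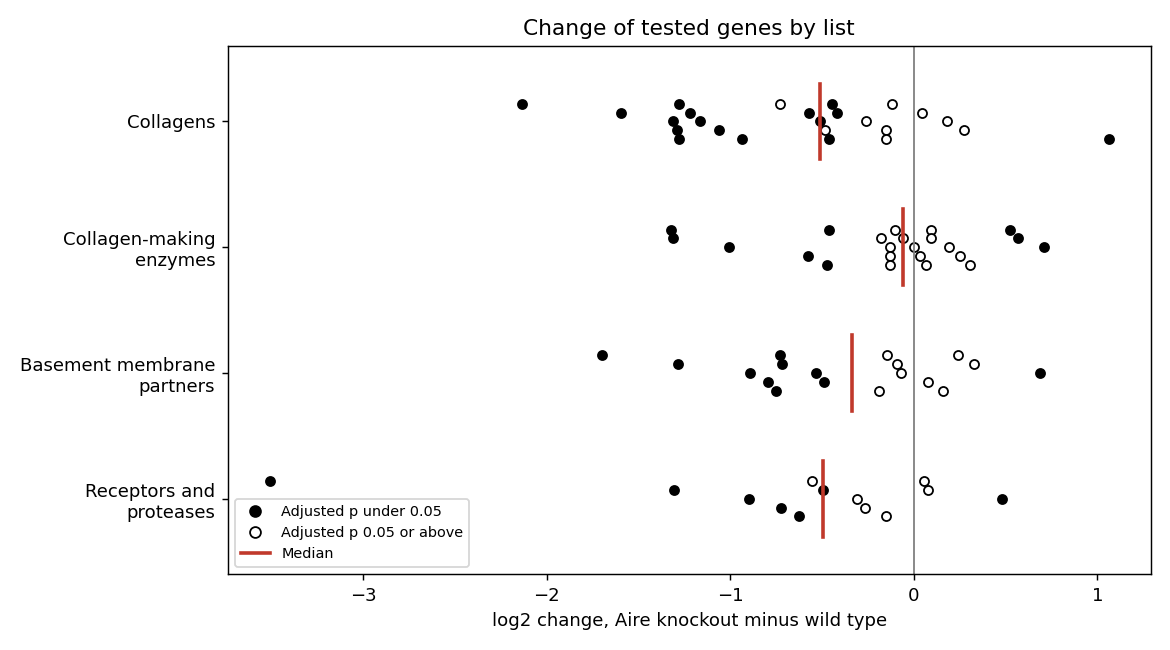
Log2 change (Aire knockout minus wild type, horizontal axis) of each tested gene in the collagen family and the 3 other lists, with filled circles for an adjusted p under 0.05 and red bars for the median of each list. The collagens spread from −2.13 to 1.06, and the lone point at −3.51 among receptors and proteases is Mmp13.

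Markers of other cell types moved beside these genes, and their part in the results was not tested. The counts below stand beside shares of 23.2% lower and 18.5% higher over all tested named genes. Of 12 fibroblast and mesenchyme markers 10 were tested, of which 4 fell (Acta2, Pi16, Fbln1 and Mfap5) and 1 rose (Dcn). Their summed level on the antilog scale ranged from 10175 to 12575 in knockout arrays, highest in replicate 3, and from 10694 to 16193 in wild-type arrays, and Postn was above background on no array. Most of this sum is Dcn, Thy1 and Acta2. Of these Dcn rose, Acta2 fell and Thy1 did not pass (−0.29, adjusted p = 0.276), so the sum mixes opposite changes. Acta2, smooth muscle actin, read 10.58, 9.82 and 11.11 in the knockout, against 12.72, 12.16 and 11.99 in wild type. Krt5, a keratin of thymic epithelium, showed the same order of arrays, with 9.20, 8.66 and 9.93 in the knockout, against 11.43, 10.99 and 10.86 in wild type. Of the 6 mTEC markers, all tested, 3 fell (Aire, Krt5 and Krt14) and 1 rose (H2-Aa). For Aire, Fezf2, Cd80 and H2-Aa knockout replicate 3 was not the highest knockout array. Pdgfra, a defining marker of fibroblasts, read 7.11, 7.11 and 7.14 in the knockout, against 7.08, 6.83 and 6.94 in wild type, close to background. Of 7 endothelial markers 6 were tested, of which 2 fell and 2 rose, with summed levels of 1748 to 2030 in the knockout and 1367 to 1758 in wild type, and Tie1 was not above background on any array.

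Among cartilage genes other than collagens, some fell and others did not pass the test. Of 8 chondrocyte markers 5 were tested and 2 fell, with summed levels of 5611 to 5779 in the knockout and 6749 to 7291 in wild type. Over all tested named genes 23.2% fell and 18.5% rose. Comp, a cartilage matrix protein that binds collagen, read 6.81, 6.57 and 6.61 in the knockout, where no array was above background, against 9.54, 9.47 and 9.48 in wild type, at least 6.27-fold lower (adjusted p = 3.54e-08). Matn1, a matrilin of cartilage, changed by −1.58 (SE 0.14, adjusted p = 1.89e-05). Sox9, the transcription factor of cartilage lineages that other epithelia also express, changed by 0.04 (adjusted p = 0.74) and the cartilage proteoglycan Acan by −0.02 (adjusted p = 0.884). Most of the summed chondrocyte level is Sox9. Cnmd, Hapln1 and Matn3 were above background on no array. The summed level of dendritic cell and macrophage markers was 376 to 401 in the knockout and 1058 to 1205 in wild type, with Itgax above background on no array. Of these, 2 were tested and 2 fell. For cortical thymic epithelium the sum was 9488 to 11630 in the knockout and 7335 to 8566 in wild type, with Foxn1 above background on no array. Most of this sum is Ccl25, and of 4 tested cortical markers 3 rose and 0 fell. For thymocytes the sum was 654 to 898 in the knockout and 722 to 815 in wild type, with Rag1 above background on no array. Of 3 tested thymocyte markers 0 fell and 0 rose.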

How the data were processed

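The authors deposited normalized log2 values, 1 per probe and array. BeadStudio and lumi are listed, with no version, in the submitters' processing notes. Which background correction, transform and normalization were applied the sources used here do not say, and remaining background compresses the folds of dim genes. The 6 columns have nearly equal medians (6.55). Another 24 deposited columns carry names that match no sample label and were not used, so detection p-values were not applied. Symbols came from the platform annotation, updated through gene IDs for the lists. Of 46619 probes, 32782 had 1 symbol, 55 several (treated as unnamed) and 13782 none.

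On 18894 tested probes (40.5%) genotype was fitted with limma 3.58.1 in R 4.3.3 (lmFit, eBayes, two-sided), with Benjamini-Hochberg adjustment and a threshold of 0.05. The fit was tested on simulated data. Replicate numbers did not pair the arrays: deviations from group means of same-numbered arrays correlated with r of 0.20, −0.06 and −0.02. The members and lists were chosen with earlier results of these data known, and lists are described by counts and medians only. All tested collagen genes are named, with up to 4 called genes of the largest change from each other list. Of the marker lists this rule covers only Aire, the counts and the summed levels. Values of other single markers, such as Acta2, Krt5, Dcn and Comp, are given outside it. Alternatives were other filters, normalizations, scalings, covariates, variance models, probe averaging and leaving out each array. With 3 arrays a group, their number limits the precision.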

Additional observations from a re-analysis of the deposited data

How the results depend on the processing

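With all arrays, 15 collagen genes fell and 1 rose. The falls numbered 7 (of 15 tested) when a probe had to stand above background on all 6 arrays, 8 with the date label as a covariate, 10 within chip 1, 7 within chip 2 and 9 for a log2 change of at least 1. Other settings gave 12 to 17, and leaving out 1 array 14 to 17. The rises were 0 within chip 1 and 1 to 2 when 1 array was left out, with Col17a1 added without wild-type replicate 1. None of the 16 collagen genes that passed changed direction. Of those that did not pass, Col6a2 changed from −0.15 to 0.46 within chip 2 and 0.34 with the date label, and Col15a1 from −0.48 to 0.03 within chip 2. Col7a1 passed in all 19 alternatives, and Col2a1, Col9a1, Col23a1 and Col26a1 in the 18 that tested them, since the filter on all 6 arrays left them out. With the replicate block 15 collagens fell and 1 rose, although the shared numbers do not pair the arrays.

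Over all named genes 4812 passed, against 2732 with the date label, 3136 with housekeeping scaling, 1504 within chip 1, 1877 within chip 2, 1149 for a log2 change of at least 1, and 3538 to 4757 when 1 array was left out. Of the collagen-making enzymes 6 fell, against 2 with the filter on all 6 arrays, 1 with the date label, 3 with housekeeping scaling, 0 within chip 2, 3 for a log2 change of at least 1, and 4 to 6 with 1 array left out. Of these enzymes 3 rose, against 1 within chip 1, 1 within chip 2, 0 for a log2 change of at least 1, and 3 to 4 with 1 array left out. Of the basement membrane partners 9 fell, against 4 each with the filter on all 6 arrays, with the date label, within chip 1 and within chip 2, 2 for a log2 change of at least 1, and 7 to 9 with 1 array left out. Of these partners 1 rose, against 0 with the filter on all 6 arrays, within chip 1 and for a log2 change of at least 1, 2 with chip as a block, with the date label and with probes averaged, and 1 to 2 with 1 array left out (2 without wild-type replicate 1, which added Hspg2). Of the receptors and proteases 6 fell, against 2 with the date label, 1 within chip 2, 2 for a log2 change of at least 1, and 4 to 7 with 1 array left out. Of these 1 rose, against 0 with the date label, within either chip and for a log2 change of at least 1, and 0 to 1 with 1 array left out (0 without knockout replicate 2). The filter on all 6 arrays tests fewer genes and the fits within a chip use fewer arrays. For the other settings the cause was not tested. Signal near background limits the folds of the dim collagens.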
